A study of Mus musculus with 18 samples.

Results

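The 10 genes described here, Apoa1, Apoa2, Apoa4, Apoa5, Apob, Apoc1, Apoc3, Apoe, Apoh and Apom, encode apolipoproteins, the proteins that coat and steer the lipid particles of plasma. They were picked out by gene symbol, with earlier results of these data known. All 10 were measured in all 3 count tables, out of 21018 genes present in at least 1 table and 16184 present in all 3. The RNA came from the livers of 6 male C57/B6J mice aged 12 weeks. 3 mice (I9579, I9582 and I9583 in the tables) received 20 µg/Kg of IL-1β, an inflammatory cytokine, and 3 mice (U9574, U9575 and U9576) received saline, in each case by intraperitoneal injection 4 h before the liver was taken. RNA of every mouse was made into 1 library with each of 3 kits, which gives 18 libraries in 6 groups of 3. No group carries a mutant allele or a second agent, and no animals were pooled. Pico, the low-input SMARTer kit for total RNA, keeps the strand, depletes ribosomal sequence and started from 1.7 to 2.6 ng. V4 (SMART-Seq v4) primes on poly(A) tails, copies full-length cDNA, does not keep the strand and started from 0.8 to 1.3 ng. TruSeq (stranded mRNA) selects poly(A) RNA and started from 200 ng. Reads were 150 bases long for Pico and V4 and 125 bases long for TruSeq, and TruSeq was also run on another sequencer model than both SMART kits. Kit and RNA amount cannot be told apart, nor can kit, sequencer and read length where TruSeq is one of the kits compared.

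Apolipoproteins are made mainly by hepatocytes and, for several of them, by enterocytes of the intestine. Apob is the non-exchangeable backbone of very-low-density and low-density lipoproteins and is loaded with lipid by the microsomal transfer protein as it is made. Apoa1 and Apoa2 are the chief proteins of high-density lipoprotein. Apom, a lipocalin, carries sphingosine-1-phosphate on the same particles. The smaller exchangeable proteins set how particles are handled: Apoe is a ligand of the low-density lipoprotein receptor family, Apoc1 and Apoc3 slow lipolysis and uptake, Apoa5 favours triglyceride clearance, and Apoa4 is secreted with triglyceride-rich particles. Apoh, beta-2-glycoprotein I, binds anionic phospholipids. Plasma lipoproteins are known to be remodelled in the acute-phase response, in which the liver changes its secreted proteins after cytokines such as IL-1β.

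In the mm9 annotation 4 of the 10 genes lie side by side on chromosome 9, within 43.3 kb (chr9:46036663-46080002), in the order Apoa1, Apoc3, Apoa4, Apoa5, with Apoc3 on the minus strand and the rest on the plus strand. Apoc1 (chr7:20274833-20278007) and Apoe (chr7:20281458-20284515) are neighbours on the minus strand of chromosome 7. Apob is at chr12:7984454-8023641, Apoa2 at chr1:173155185-173156510 and Apoh at chr11:108204668-108275710, all on the plus strand, and Apom is at chr17:35265942-35268995 on the minus strand. The longest annotated transcript was 487 bases for Apoc1, 518 for Apoa2, 709 for Apoc3, 1013 for Apom, 1035 for Apoa1, 1190 for Apoh, 1386 for Apoe, 1815 for Apoa4 and 2515 for Apoa5. Apob, with 29 exons, reached 13934 bases. Comparisons of short and long RNA within the family therefore rest on Apob alone on the long side. The exons of Apoa4 overlap an antisense gene, Gm10680, by 632 bases, which V4 cannot separate by strand. In Pico, which keeps the strand, Gm10680 had at most 3 counts in any library.

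Promoter sequence from RefSeq (GRCm38.p6) matched 8 of the 10 genes, Apoc1 and Apoc3 being the exceptions. The 250 bases before the start of 3 genes are shown, because Apoa1 and Apoa4 share a cluster and lay on opposite sides of 0 after IL-1β. Apoh was added as the only member called in every kit when libraries were scaled by their totals. Capitals mark every match, on either strand, of 2 patterns: the NF-κB core pattern, which is GGG and CC with 5 bases of any kind between them, and AGGTCA, the half-site of many nuclear receptors.
Apoa1: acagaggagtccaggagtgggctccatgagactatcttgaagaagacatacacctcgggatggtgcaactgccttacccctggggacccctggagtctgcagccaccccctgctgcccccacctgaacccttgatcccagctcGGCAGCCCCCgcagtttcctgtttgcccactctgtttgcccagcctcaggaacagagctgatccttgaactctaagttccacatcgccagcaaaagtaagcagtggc
Apoa4: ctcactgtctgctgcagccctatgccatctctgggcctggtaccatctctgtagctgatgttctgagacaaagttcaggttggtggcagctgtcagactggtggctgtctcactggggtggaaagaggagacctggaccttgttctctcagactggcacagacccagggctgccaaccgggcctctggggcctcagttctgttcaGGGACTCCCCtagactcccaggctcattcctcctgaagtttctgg
Apoh: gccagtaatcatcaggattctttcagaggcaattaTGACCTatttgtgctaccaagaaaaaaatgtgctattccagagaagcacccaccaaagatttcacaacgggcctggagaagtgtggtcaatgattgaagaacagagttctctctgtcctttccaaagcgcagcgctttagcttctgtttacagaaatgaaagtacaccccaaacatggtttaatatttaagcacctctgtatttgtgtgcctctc
The Apoa1 stretch is chr9:46228380-46228629, the Apoa4 stretch chr9:46240594-46240843 and the Apoh stretch chr11:108395047-108395296, each on the plus strand of GRCm38.p6 and not to be mixed with the mm9 positions above. The NF-κB core pattern was present in 5 of the 8 promoters (Apoa1, Apoa4, Apoa5, Apob and Apom), beside 45.4% of 27025 promoters in the table. In Apoa1 the match began 107 bases before the start and in Apoa4 45 bases before it. AGGTCA was in 1 of the 8, Apoh, 215 bases before the start, beside 13.8% of all promoters. TTCNNNGAA, the STAT pattern, was in 0 of the 8 beside 7.18% of all, and TTGCNNAA, a C/EBP pattern, was in 1 of the 8, Apob, beside 9.55%. The 2 patterns in capitals did not overlap in these windows. A match is a run of letters and not a bound site.

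Gene counts per library ranged from 12348864 to 12858237 with TruSeq, from 12013453 to 12352473 with V4 and from 4024632 to 4134070 with Pico. Hepatocyte markers (6 of 6 measured) summed to 45345 to 50599 CPM, the counts of a gene scaled to a common library total, after IL-1β and 55264 to 67617 CPM after saline when measured with Pico. With V4 the same sums were 31488 to 34057 CPM and 39984 to 44950 CPM, and with TruSeq 64484 to 70850 CPM and 89407 to 105551 CPM, lower after IL-1β in every kit. In TruSeq, sums after IL-1β and after saline were 52.6 to 78.3 and 108 to 180 CPM for 6 Kupffer cell markers, 58.4 to 80.5 and 135 to 154 CPM for 5 endothelial markers, 144 to 190 and 276 to 312 CPM for 5 stellate cell markers, and 8.30 to 12.9 and 5.06 to 6.40 CPM for 4 cholangiocyte markers. Neutrophil markers in TruSeq (5 measured, Ly6g and Camp at 0 in 3 or more libraries) summed to 36.0 to 73.8 CPM after IL-1β and 1.56 to 2.77 CPM after saline. Of 4 enterocyte markers 2 were measured, Fabp2 and Vil1, with a sum in TruSeq of 25.6 to 43.6 CPM after IL-1β and 44.3 to 63.1 CPM after saline. The sums overlapped in Pico (15.4 to 32.3 against 24.3 to 32.9 CPM) and in V4 (28.7 to 67.8 against 54.5 to 78.2 CPM). Single markers did not all follow their sums, by limma-voom calls with library totals as set out below. Of the 6 hepatocyte markers, 1 was called higher in each kit, and 5, 4 and 4 lower in Pico, V4 and TruSeq. With TruSeq 1 Kupffer cell marker and 1 endothelial marker were called higher, and 4 of each lower. The part of these cell-type levels in the changes below was not tested. In bulk liver fewer cells of a type and less RNA per cell cannot be told apart.

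Together the 10 genes took a large share of each library. In Pico they made up 4.78% ± 0.0054 (SD, n = 3) of all gene counts after IL-1β and 5.39% ± 0.12 after saline, while the shares were 2.84% ± 0.15 and 3.13% ± 0.38 with TruSeq and 7.38% ± 0.88 and 8.48% ± 2.48 with V4. Saline mouse U9576 had the highest share in each kit, 5.52%, 11.3% and 3.56%. In V4 that library stood clearly apart from saline mice U9574 and U9575, at 6.59% and 7.55%.

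Per base of transcript, Apoe, Apoa2, Apoa1 and Apoc1 were the most abundant members and Apoa4 the least in every kit. In saline livers measured with TruSeq, the level in CPM per kilobase was 8676 ± 904 (SD, n = 3) for Apoa2, 6225 ± 907 for Apoe, 5704 ± 655 for Apoc1 and 5267 ± 770 for Apoa1, of which Apoe, Apoc1 and Apoa1 lay within 1 SD of the next. Apoc3 (1515 ± 206) and Apoh (1405 ± 145) came next and did not differ beyond their spread, nor did Apoa5 (451 ± 122) and Apob (415 ± 59.1), and Apom (187 ± 15.0) and Apoa4 (33.4 ± 8.57) were lowest. In Pico, Apoe led with 17235 ± 90.2, and Apob (1008 ± 16.4) stood above Apoh (870 ± 42.3) and Apoc3 (639 ± 67.6). In V4, Apoe (29247 ± 7462) and Apoa2 (26087 ± 12015) overlapped widely, and Apob (60.3 ± 7.25) was second from last, above Apoa4 (41.0 ± 11.2). The order of the family thus changed with the kit for Apob above all.

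**Figure D1:**
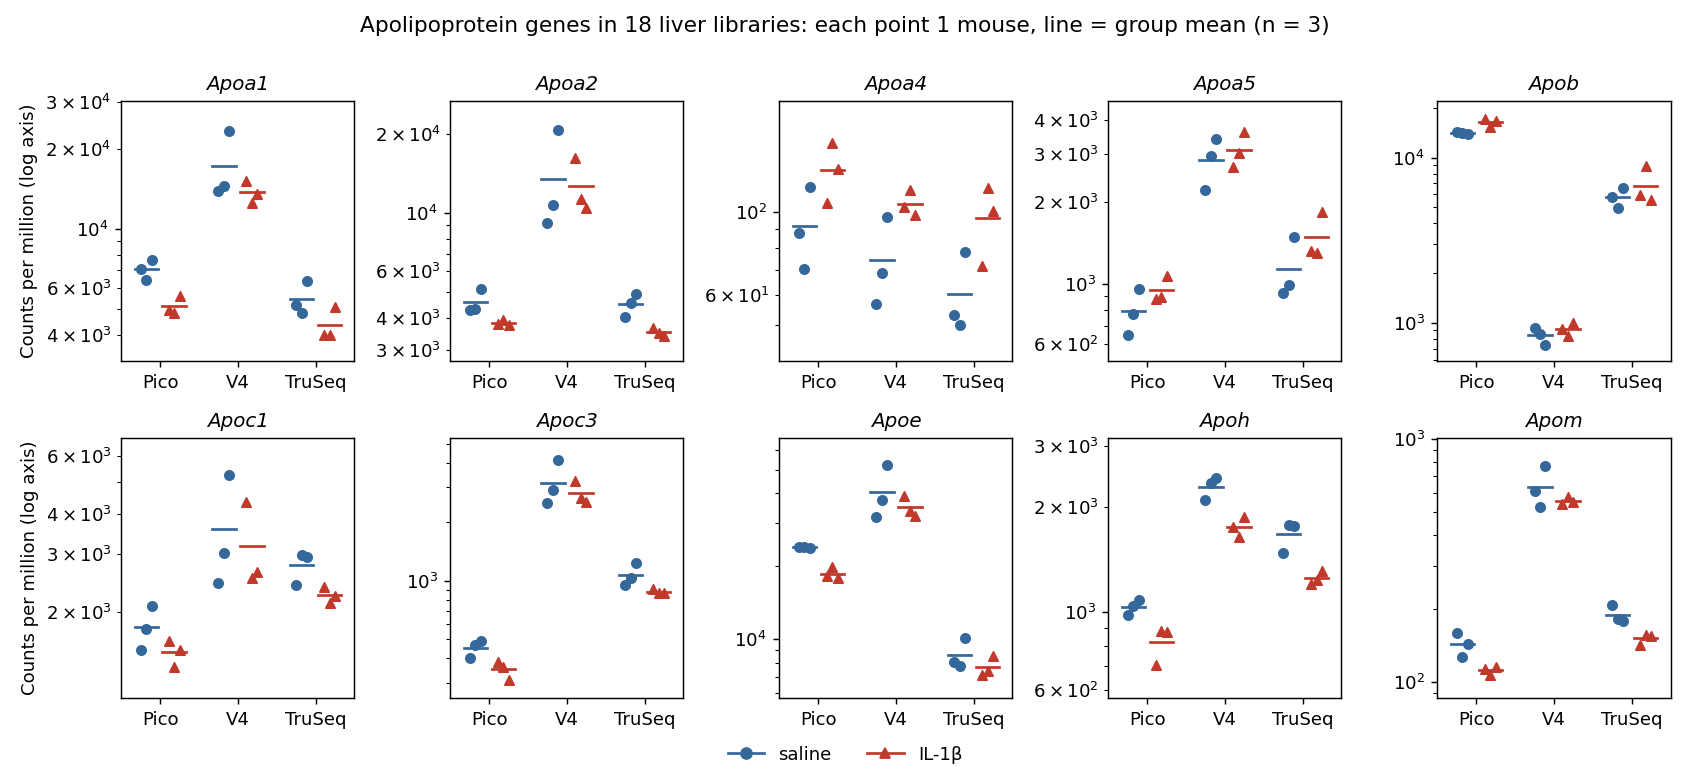
CPM (log axis, 1 panel per gene) of the 10 apolipoprotein genes by kit, with blue circles for 3 saline mice, red triangles for 3 IL-1β mice and a line at each group mean. Apoh after IL-1β lies below saline in all 3 kits, Apoa4 means lie higher after IL-1β, and Apob is near 841 CPM in V4 saline libraries against 14047 CPM in Pico.

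The response to IL-1β was first asked of each kit by itself, with limma-voom on library totals and Benjamini-Hochberg adjustment over all genes, where a gene was called at an adjusted p of 0.05 or less. In every kit the log2 fold change, IL-1β minus saline, was below 0 for 7 members (Apoa1, Apoa2, Apoc1, Apoc3, Apoe, Apoh and Apom) and above 0 for 3 (Apoa4, Apoa5 and Apob), except that Apoa2, Apoc1 and Apoc3 turned to 0.14, 0.02 and 0.01 in V4 when the libraries were scaled by TMM factors. In Pico 5 members were called lower and 1 higher, where 10.8% of 18108 genes were called lower and 6.78% higher. In V4 1 member was called lower and 0 higher, beside 7.41% and 3.6% of 18051 genes. In TruSeq 4 were called lower and 1 higher, beside 21.8% and 12.3% of 19424 genes. The median log2 fold change of the members was -0.30, -0.15 and -0.29 in Pico, V4 and TruSeq, and that of all genes was -0.12, -0.22 and -0.17.

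TMM moved the median of all genes up by 0.13, 0.17 and 0.16 in Pico, V4 and TruSeq, which is a large step for changes of this size. With TMM the calls became 2 lower and 3 higher in Pico, beside 8.16% and 9.16% of all genes. They became 0 lower and 1 higher in V4, beside 4.84% and 4.79%, and 0 lower and 2 higher in TruSeq, beside 16.1% and 16.7%, so that the TruSeq count of higher members is near the share of all genes. Below, "fell" and "rose" refer to calls with library totals, and each value with TMM is given where the call differs.

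**Figure D2:**
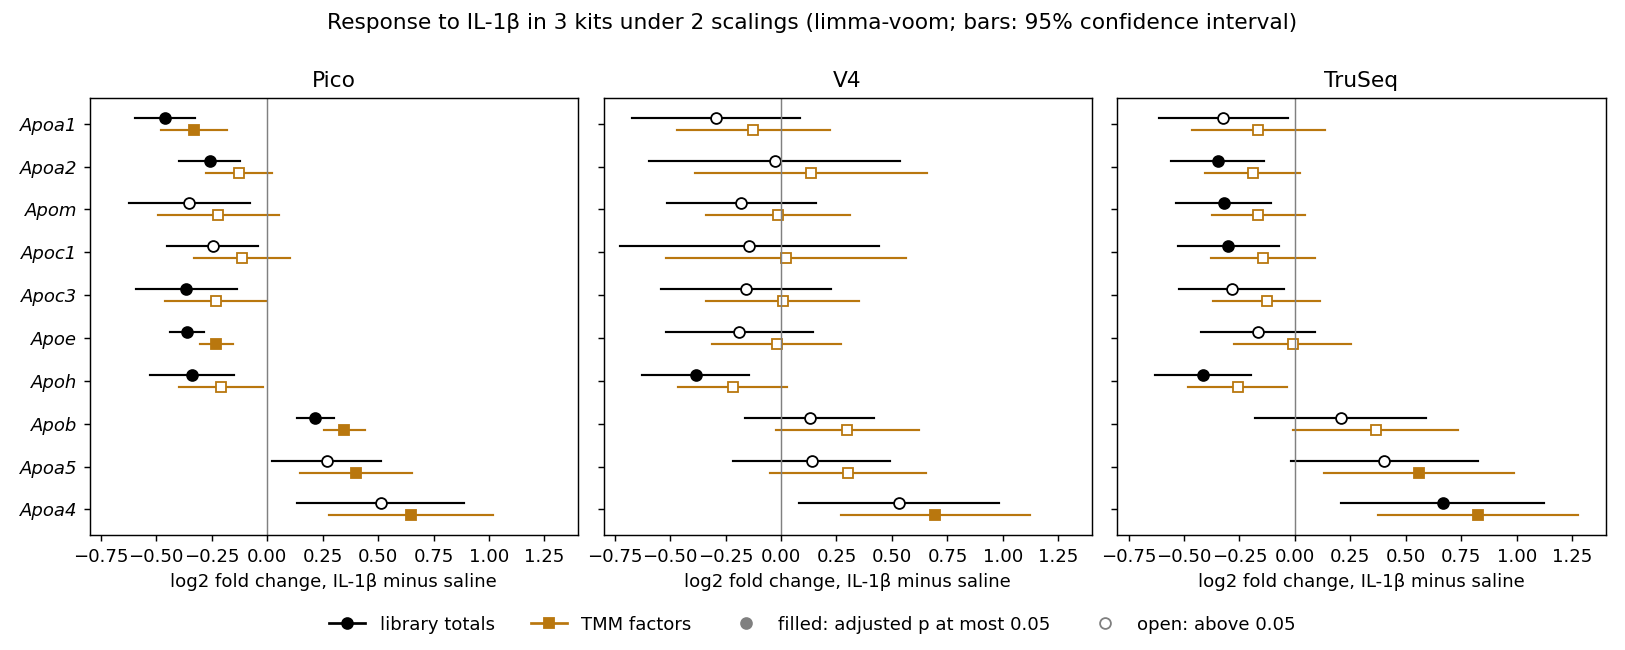
Log2 fold change, IL-1β minus saline, of each member in each kit with its 95% confidence interval, from limma-voom with library totals (black circles) and with TMM factors (orange squares), filled where the adjusted p was at most 0.05. All points for Apob, Apoa5 and Apoa4 lie right of 0, and with TMM Apoa4 is filled in all 3 kits, at 0.65, 0.70 and 0.83.

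Among the proteins of high-density lipoprotein, Apoa1 was lower after IL-1β in Pico. Its counts were 20070, 19401 and 22623 in IL-1β mice I9579, I9582 and I9583 and 28888, 26598 and 31554 in saline mice U9574, U9575 and U9576. The groups did not overlap, and Apoa1 fell by 0.46 on the log2 scale (SE 0.06, adjusted p = 8.91e-05), a level that decreased by 27.3%, with a call that held with TMM (-0.33, adjusted p = 0.00284). In TruSeq the counts were 49568, 49192 and 63402 after IL-1β against 65500, 61785 and 81644. IL-1β mouse I9583 overlapped saline mouse U9575, and the change of -0.32 (SE 0.13) was not called (adjusted p = 0.0857). In V4 the counts were 184775, 150922 and 163320 against 166793, 175363 and 288865, with only saline mouse U9576 far above the rest, and the change was -0.29 (SE 0.17, adjusted p = 0.34).

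Apoa2 fell in Pico and TruSeq. The Pico counts were 15243, 15732 and 15150 after IL-1β and 17444, 17817 and 21188 after saline, without overlap, and the change was -0.26 (SE 0.06, adjusted p = 0.0098). In TruSeq they were 45352, 43103 and 42334 against 50646, 58182 and 63452, again without overlap, and the change was -0.35 (SE 0.09, adjusted p = 0.0168). In V4 the 6 values were spread over more than the treatment difference, at 197366, 136534 and 125828 against 110504, 129297 and 255052, and the change was -0.03 (SE 0.26, adjusted p = 0.96). Both calls were lost with TMM, at -0.13 in Pico (adjusted p = 0.253) and -0.19 in TruSeq (adjusted p = 0.161).

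Apom, the sphingosine-1-phosphate carrier, fell in TruSeq, from 2614, 2334 and 2297 counts after saline to 1769, 1932 and 1919 after IL-1β (-0.32, SE 0.10, adjusted p = 0.0266), without overlap. With TMM its change was -0.16 (adjusted p = 0.221). In Pico the counts were 457, 431 and 465 against 652, 522 and 591. These too did not overlap, but the change of -0.35 (SE 0.13) missed the threshold at an adjusted p of 0.0715. In V4 they overlapped, 6538, 6943 and 6643 against 7307, 6339 and 9563 (-0.18, SE 0.15, adjusted p = 0.535).

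Apob, the backbone of the low-density particles, moved the other way. In Pico its counts were 68986, 62049 and 66926 after IL-1β and 58292, 57823 and 57153 after saline. All 3 IL-1β libraries were above all 3 saline libraries, and Apob rose by 0.22 (SE 0.04, adjusted p = 0.00103), or 16.3%, and by 0.35 with TMM (adjusted p = 1.94e-05). In TruSeq the counts were 73751, 109350 and 68392 against 73494, 63209 and 84677. Here mouse I9582 alone stood above the saline range, and the change of 0.21 (SE 0.17) was not called (adjusted p = 0.421). In V4 only 9070 to 12008 counts were left on this transcript, with a change of 0.13 (SE 0.13, adjusted p = 0.609).

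Apoe, the receptor ligand, had the closest saline values of the 10 members in Pico, with 98038, 98360 and 98259 counts after saline and 73646, 79728 and 72158 after IL-1β. The groups were far apart and Apoe fell by 0.36 (SE 0.04, adjusted p = 3.9e-06), its level decreased by 22.1%, and with TMM it fell by 0.23 (adjusted p = 0.00018). With edgeR, also on TMM factors, the change was -0.23 and missed the threshold (adjusted p = 0.0543). The same mice gave 101782, 99440 and 129480 counts after saline and 88304, 91092 and 105116 after IL-1β in TruSeq, which overlapped (-0.17, SE 0.11, adjusted p = 0.309). V4 counts also overlapped, at 383735 to 642517 after saline and 387617 to 474947 after IL-1β (-0.19, SE 0.15, adjusted p = 0.506).

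Apoc3 and Apoc1, the inhibitors of clearance, were lower after IL-1β at a similar size. Apoc3 had 1543, 1460 and 1259 counts after IL-1β in Pico and 1632, 1928 and 2035 after saline, and fell by 0.37 (SE 0.11, adjusted p = 0.0256; with TMM -0.23, adjusted p = 0.166). In TruSeq its groups did not overlap either, with 11191, 10673 and 10724 counts against 12034, 13266 and 15884, at -0.29 (SE 0.11) and an adjusted p of 0.0625. Apoc1 fell in TruSeq, with 29537, 26352 and 27665 counts after IL-1β and 30502, 38096 and 37897 after saline (-0.30, SE 0.10, adjusted p = 0.0444; with TMM -0.14, adjusted p = 0.347). In Pico Apoc1 overlapped, with 6589, 5463 and 6160 counts against 6225, 7304 and 8592 (-0.25, SE 0.10, adjusted p = 0.0967). In V4 the changes of Apoc3 and Apoc1 were -0.16 (SE 0.17, adjusted p = 0.627) and -0.14 (SE 0.27, adjusted p = 0.763).

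Apoa4, the least abundant member per base, had the largest change of the 10 by size in each kit with all mice, but not in Pico without mouse I9582, I9583 or U9575 (0.39, 0.50 and 0.34, against -0.42, -0.53 and -0.52 for Apoa1) nor in V4 without mouse U9574 (0.36, against -0.45 for Apoh). The TruSeq counts were 895, 1428 and 1250 after IL-1β and 673, 642 and 1009 after saline, so that IL-1β mouse I9579 overlapped saline mouse U9576. Apoa4 rose by 0.67 (SE 0.20, adjusted p = 0.0299), or 58.8%. The Pico counts were 429, 613 and 527 against 360, 290 and 483, with a change of 0.51 (SE 0.18, adjusted p = 0.0575), and the V4 counts were 1255, 1383 and 1181 against 686, 835 and 1196, with a change of 0.53 (SE 0.21, adjusted p = 0.13). With TMM Apoa4 was called higher in all 3 kits, with adjusted p = 0.0149, 0.0458 and 0.0109 in Pico, V4 and TruSeq.

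Apoa5 had 16385, 16088 and 22744 counts after IL-1β and 11740, 12648 and 19112 after saline in TruSeq, 3569, 3603 and 4321 against 2658, 3186 and 3963 in Pico, and 32815, 36432 and 43651 against 26515, 35663 and 41927 in V4. In each kit the highest saline mouse was U9576 and the highest IL-1β mouse was I9583, and the groups overlapped. The changes were 0.40 (SE 0.19), 0.27 (SE 0.12) and 0.14 (SE 0.16), with adjusted p = 0.135, 0.131 and 0.654. With TMM Apoa5 was called higher in TruSeq (0.56, adjusted p = 0.0481) and Pico (0.40, adjusted p = 0.026) and not in V4 (0.30, adjusted p = 0.29).

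Apoh, the phospholipid-binding beta-2-glycoprotein I, was the only member called in all 3 kits with library totals. Its Pico counts were 2862, 3548 and 3542 after IL-1β and 4008, 4298 and 4472 after saline. The V4 counts were 21352, 19753 and 22521 against 25170, 28352 and 30018, and the TruSeq counts 14936, 15279 and 16228 against 18641, 22771 and 22669. No IL-1β library reached a saline library in any kit. Apoh fell, with log2 changes of -0.34 (SE 0.09, adjusted p = 0.0134), -0.38 (SE 0.11, adjusted p = 0.0462) and -0.42 (SE 0.10, adjusted p = 0.00862), that is, changes in level of -21.0%, -23.4% and -25.0%. With TMM the changes were -0.21, -0.22 and -0.26 and none was called (adjusted p = 0.131, 0.271 and 0.0758). Among 4204 other genes, the 3 whose log2 level followed Apoh most closely over the 18 libraries, centred within each kit, were Serpina6 (corticosteroid-binding globulin, r = 0.95), Hpd (a tyrosine-degrading dioxygenase, r = 0.95) and Hhex (a homeobox factor, r = 0.95). The 18 points come from 6 mice that share the treatment difference, and r is given as a description.

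By the plain criterion of non-overlap in CPM, 6 members were lower and 1 (Apob) higher in Pico, where 18.6% of all genes were wholly lower and 12.6% wholly higher. In V4 1 member (Apoh) was wholly lower and 1 (Apoa4) wholly higher, beside 18.6% and 9.09% of all genes, although the Apoa4 counts themselves overlapped. In TruSeq 5 were wholly lower and 0 wholly higher, beside 27.9% and 17.1%. With library totals, the calls of Apoa1, Apob and Apoe in Pico and of Apoh in TruSeq held whichever mouse was left out, although that of Apoe was lost with edgeR as given above. The V4 call of Apoh was lost without any 1 of the 6 mice (adjusted p 0.0551 to 0.192). The call of Apoa4 in TruSeq was lost without mouse I9582, I9583, U9574 or U9575 (adjusted p 0.121 to 0.158), and that of Apoc1 without any mouse but U9574 (adjusted p 0.0683 to 0.152). Apoa2 lost its call in TruSeq without I9582, I9583, U9575 or U9576 (adjusted p 0.0506 to 0.063) and in Pico without I9579, I9582 or I9583 (adjusted p 0.078 to 0.0899). Apom in TruSeq lost it without I9579, I9582 or U9574 (adjusted p 0.0543 to 0.0887), Apoc3 in Pico without any mouse but U9574 (adjusted p 0.0578 to 0.146), and Apoh in Pico without I9579, I9582, U9575 or U9576 (adjusted p 0.054 to 0.101).

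Ratios of 2 members within a library do not depend on how libraries are scaled, and the pairs given here were chosen after their values were seen, so no test is given. The log2 ratio of Apoa4 to Apoa1 counts, both genes of the chromosome 9 cluster, was -5.55, -4.98 and -5.42 after IL-1β and -6.33, -6.52 and -6.03 after saline in Pico. It was -7.20, -6.77 and -7.11 against -7.93, -7.71 and -7.92 in V4, and -5.79, -5.11 and -5.66 against -6.60, -6.59 and -6.34 in TruSeq. In all 3 kits every IL-1β library was above every saline library, by 1.96-fold, 1.77-fold and 1.99-fold on average. Apoa4 against Apoc3, the gene between them, was higher after IL-1β by 1.84-fold, 1.61-fold and 1.94-fold, again without overlap. Apoa5 against Apoa1 was 1.66-fold and 1.65-fold higher without overlap in Pico and TruSeq and 1.35-fold higher with overlap in V4. By contrast Apoc3 against Apoa1 differed by 1.07-fold, 1.10-fold and 1.03-fold, with overlap in each kit. In the chromosome 7 pair, Apoe against Apoc1 differed by 0.92-fold, 0.97-fold and 1.10-fold, also with overlap. Apoa5 against Apoc3 did not overlap in Pico and TruSeq and overlapped in V4. Apob against Apoa1 and Apob against Apoe did not overlap in Pico and overlapped in V4 and TruSeq. Within the chromosome 9 cluster, Apoa4 thus separated the treatments against both Apoa1 and Apoc3 in each kit. How often other pairs of genes do so was not counted.

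Whether the kits differed in the response itself was tested as the interaction of kit and treatment. No member passed in any pair of kits, and over all genes 0% were called for Pico against TruSeq, 0% for V4 against TruSeq and 0% for Pico against V4 (limma-voom; edgeR also called 0 in each pair). At an unadjusted p under 0.05 there were 0 members in each pair, beside 945, 1090 and 900 of all genes. The largest differences of log2 fold change between kits were 0.19 (Apoe, with the lower fold change in Pico than in TruSeq, unadjusted p = 0.121), 0.32 (Apoa2, V4 against TruSeq) and 0.23 (Apoa2, Pico against V4). In this model, which does not pair the libraries of a mouse, the 95% confidence intervals reached 0.24 to 0.63 to either side for Pico against TruSeq. They reached 0.30 to 0.73 for V4 against TruSeq and 0.27 to 0.76 for Pico against V4. Such intervals are wide enough to hold differences as large as most of the changes themselves. That Apoe passed in Pico and not in TruSeq is therefore not a shown difference between the kits. With the mouse as a replicate block the smallest unadjusted p was 0.0315 (Apoa1, Pico against TruSeq), 0.0353 (Apoa5, V4 against TruSeq) and 0.157 (Apoa5, Pico against V4), and no member passed after adjustment (smallest 0.645). The block called 0 genes higher and 1 lower over all genes for Pico against TruSeq. Its 95% confidence intervals for this pair were narrower for some members, such as Apoa1 (-0.26 to -0.01) and Apoa2 (-0.01 to 0.19). For others they changed little, such as Apob (-0.41 to 0.39) and Apoe (-0.41 to 0.04). Without mouse U9576, 1 gene was called higher and 58 lower for V4 against TruSeq and 39 higher for Pico against V4, none of them a member.

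The kits differed far more in level. Apob, the longest member, and the 3 shortest pulled apart. In Pico, log2 counts of Apob exceeded the mean of Apoa2, Apoc1 and Apoc3 by 3.68, 3.63 and 3.77 in the IL-1β mice and 3.38, 3.20 and 2.99 in the saline mice. In TruSeq the excess was 1.58, 2.25, 1.56, 1.47, 1.03 and 1.33 in the same order. In V4 the sign turned, at -2.73, -2.34, -2.05, -2.03, -2.42 and -3.38. No value of one kit overlapped another kit.

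Within each mouse the contrast was 1.90 ± 0.33 (SD, n = 6 mice) larger in Pico than in TruSeq, a 3.74-fold shift, and it differed by -4.03 ± 0.57 in V4 from TruSeq, a 16.3-fold shift the other way. Pico exceeded V4 by 5.93 ± 0.40, or 61.1-fold. The size of these shifts depends on how the short members are summarised, since with their median the differences were 1.91, -3.20 and 5.11 on the log2 scale. Each difference had the same sign in 6 of 6 mice, and the two-sided exact permutation test that flips signs by mouse gave p = 0.03125 for each, the smallest that 6 mice allow (adjusted over 3 comparisons, 0.03125). With 5 mice this test cannot go below 0.0625.

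**Figure D3:**
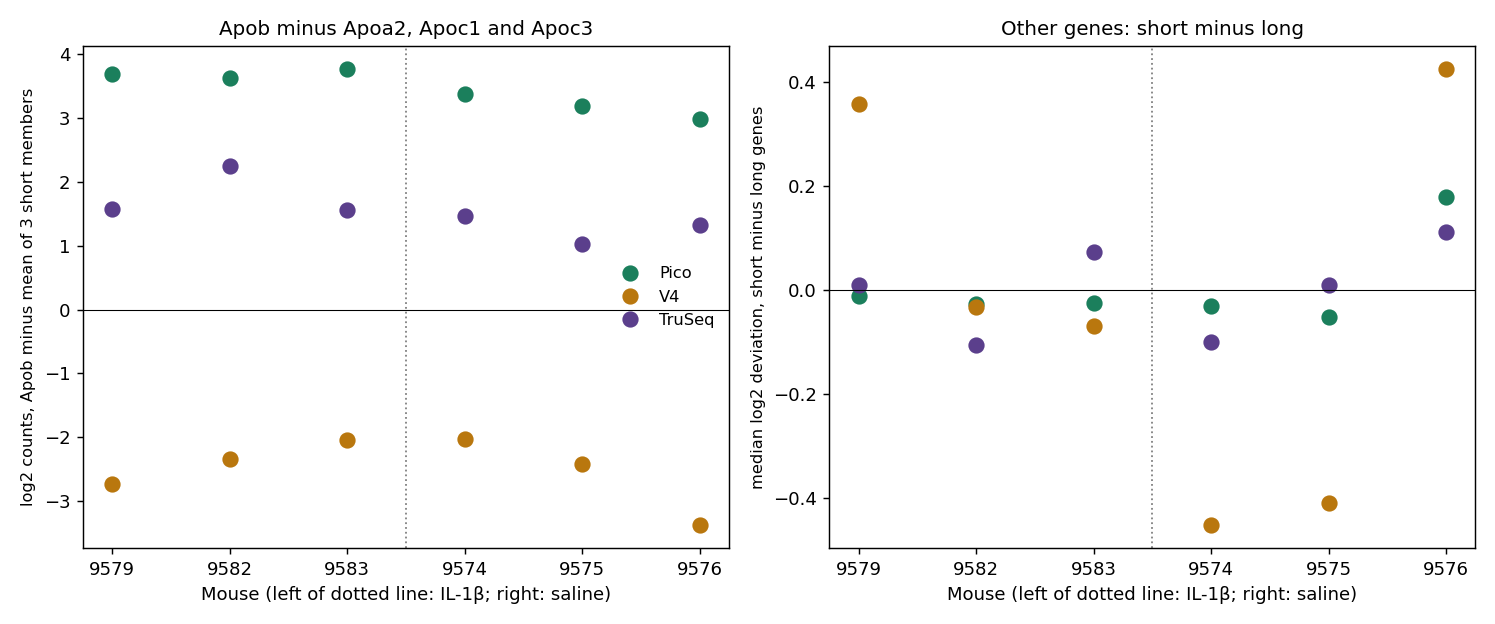
Left, log2 counts of Apob minus the mean of Apoa2, Apoc1 and Apoc3 per mouse and kit, where Pico sits at 2.99 to 3.77, TruSeq at 1.03 to 2.25 and V4 at -3.38 to -2.03. Right, the median log2 deviation of 625 other genes under 1000 bases minus that of 2911 other genes of 4000 bases or more, where V4 spans -0.45 to 0.43 and Pico and TruSeq stay within -0.11 to 0.18.

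For each member the ratio of CPM between kits within a mouse is given as a description, since the tables were normalized separately. Apob was 2.46-fold higher in Pico than in TruSeq (log2 ratio 1.30 ± 0.31, SD, n = 6) and 7.04-fold lower in V4 than in TruSeq (-2.82 ± 0.38). Genes of 10000 bases or more had medians of 1.25 and -2.40 (152 genes), so Apob lay close to other long transcripts. Over 8861 genes the medians were 0.00 and -0.45.

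Apoc3 was the counterpart among the short members, 2.43-fold lower in Pico than in TruSeq (-1.28 ± 0.11) and 3.04-fold higher in V4 (1.60 ± 0.17). Genes from 600 to under 1000 bases had medians of -0.36 and 0.89. In the ratio of Pico to TruSeq 11.2% of those 446 genes were lower than Apoc3. Length alone did not order the family: Apoc1 and Apoa2 differ by 31 bases but had Pico to TruSeq ratios of -0.61 ± 0.09 and 0.07 ± 0.08, and V4 to TruSeq ratios of 0.37 ± 0.38 and 1.66 ± 0.40.

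Apoe lay far above genes of its length in both ratios. It was 2.61-fold higher in Pico (1.38 ± 0.21) and 4.60-fold higher in V4 (2.20 ± 0.21) than in TruSeq, above 97.8% of 739 genes from 1000 to under 1500 bases in both ratios. Among saline livers Apoe ranked 3 of all genes by CPM in Pico, 1 in V4 and 7 in TruSeq, while Apob ranked 5, 168 and 19. Apom (1.80 ± 0.23) and Apoa1 (1.65 ± 0.22) were also high in V4 against TruSeq, and Apoa5 stood at 1.21 ± 0.21. Apoh (0.47 ± 0.06) was 1.39-fold higher in V4 than in TruSeq, and Apoa4 (0.22 ± 0.24) was near the level of TruSeq. In Pico against TruSeq the ratios of Apoa1, Apoa4, Apoa5, Apoh and Apom were 0.31, 0.52, -0.57, -0.65 and -0.42. Spearman's correlation of the ratio with transcript length over the 10 members was 0.52 for Pico to TruSeq and -0.36 for V4 to TruSeq, and 0.38 and -0.12 without Apob, beside 0.46 and -0.70 over all 8861 genes.

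**Figure D4:**
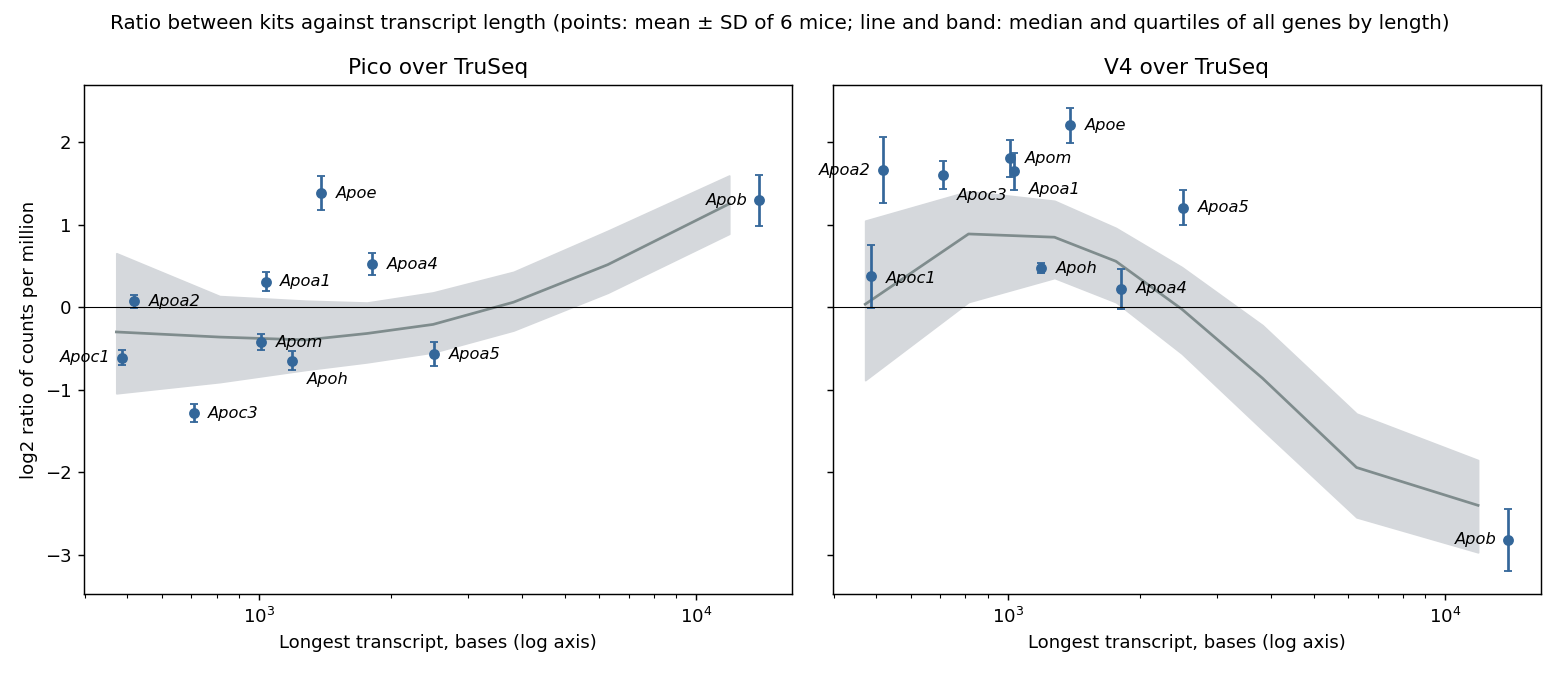
Log2 ratio of CPM against the longest transcript (log axis, bases), Pico over TruSeq on the left and V4 over TruSeq on the right, with points for members (mean ± SD of 6 mice) and a line and band for the median and quartiles of all genes by length. Apob follows the band to 1.30 and -2.82, while Apoe lies above it in both panels at 1.38 and 2.20.

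The V4 libraries varied most between saline mice. The coefficient of variation of saline mice had a median of 26.3% over the 10 members in V4, against 10.5% in Pico and 13.9% in TruSeq. Apoc1 had 52884 V4 counts in IL-1β mouse I9579 and 64819 in saline mouse U9576, against 29418 to 36742 in the other four mice. Apoa2 was likewise highest in these 2 libraries. They are also the 2 in which short genes outside the family were high against long genes, by 0.36 and 0.43, whereas the balance was -0.45 and -0.41 in saline mice U9574 and U9575 and -0.03 and -0.07 in IL-1β mice I9582 and I9583. The part of that balance in the V4 values was not tested. Without mouse U9576 the V4 changes were 0.32 for Apoa2, 0.17 for Apoc1, 0.05 for Apoc3, 0.01 for Apoe and -0.05 for Apoa1, none called, and Apoa4 was called higher (0.74, adjusted p = 0.026). Mouse U9576 was also the highest saline mouse in all 3 kits for 5 of the 10 members, so for these 5 its high values were not limited to V4. The share of all genes with that pattern is not given, so the count is a description. The balance of short against long genes was highest in mouse U9576 in Pico (0.18) and TruSeq (0.11) as well.

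Several genes that act with the family changed more than its members did, and these lists are described by counts and medians only. For comparison, genes called higher made up 6.78% (Pico), 3.6% (V4) and 12.3% (TruSeq) of all genes. Genes called lower made up 10.8%, 7.41% and 21.8%. No test compared a list with these shares. Of 14 genes of lipoprotein assembly and Apob mRNA editing, the numbers called higher and lower were 5 and 4 (Pico), 3 and 5 (V4) and 7 and 5 (TruSeq), with median log2 fold changes of 0.17, 0.15 and 0.33. Mttp, the microsomal transfer protein that lipidates Apob, fell, at -0.88 (SE 0.11, adjusted p = 2.15e-05), -1.04 (SE 0.17, adjusted p = 0.00291) and -1.17 (SE 0.10, adjusted p = 2.6e-05) in Pico, V4 and TruSeq. In TruSeq Mttp had 2233, 2606 and 2250 counts after IL-1β and 5208, 5430 and 5788 after saline, far apart. A1cf, the RNA-binding cofactor of Apob editing, changed by -1.003, -1.035 and -1.536. Abca1, which loads lipid onto Apoa1, rose by 1.42, 1.59 and 1.52, from 2874, 2739 and 3455 TruSeq counts after saline to 8580, 10510 and 6547 after IL-1β (adjusted p = 0.000126). Pla2g12b, which takes part in building Apob particles, rose by 1.10, 1.29 and 1.14. The calls of these 4 genes held with TMM, except A1cf in V4 (-0.87, adjusted p = 0.0585).

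Of 16 transcription factors known to act on apolipoprotein genes, the numbers called higher and lower were 2 and 8 (Pico), 0 and 7 (V4) and 3 and 4 (TruSeq). The medians were -0.55, -0.51 and -0.24, or -0.42, -0.35 and -0.09 with TMM. Srebf1, the sterol and lipogenic regulator, changed by -2.91, -2.72 and -2.79, with 420, 515 and 509 TruSeq counts after IL-1β against 2033, 4233 and 4624 (adjusted p = 7.86e-05). Nr0b2, the small heterodimer partner, changed by -1.76, -1.30 and -1.28, Cebpa by -1.15, -0.94 and -1.16, and the bile acid receptor Nr1h4 by -0.67, -0.59 and -0.50. With TMM Cebpa in V4 (-0.78, adjusted p = 0.0841) and Nr1h4 in V4 (-0.43, adjusted p = 0.127) and TruSeq (-0.35, adjusted p = 0.0569) lost their calls. Hnf4a, a central activator of the chromosome 9 cluster and named here after its values were seen, went the other way, with 15383, 15969 and 17100 TruSeq counts after IL-1β and 9025, 9096 and 8496 after saline. It rose by 0.91 in TruSeq (SE 0.08, adjusted p = 5.09e-05) and by 0.65 in Pico (SE 0.09, adjusted p = 7.6e-05), and its V4 change was 0.48 (SE 0.20, adjusted p = 0.166).

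Of 10 receptor and uptake genes, the numbers called higher and lower were 0 and 1 (Pico), 0 and 0 (V4) and 3 and 3 (TruSeq) (limma-voom, median log2 fold changes -0.18, -0.26 and 0.06, or -0.05, -0.09 and 0.21 with TMM), and none was called in all 3 kits. In V4, 3 of these genes had an unadjusted p under 0.05, and edgeR and DESeq2 each called 1. Of 11 lipases and remodelling genes, the numbers called higher and lower were 0 and 2 (Pico), 1 and 2 (V4) and 1 and 4 (TruSeq) (medians -0.04, -0.11 and -0.17, or 0.09, 0.06 and -0.02 with TMM). Gpihbp1, the capillary anchor of lipoprotein lipase, changed by -1.50, -1.60 and -0.94, with a Pico call lost under TMM (-1.36, adjusted p = 0.0566) and with the endothelial marker sums lower after IL-1β as given above.

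Of 13 other apolipoprotein genes, 11, 12 and 13 were measured in Pico, V4 and TruSeq. The numbers called higher and lower were 0 and 1 (Pico), 0 and 1 (V4) and 1 and 3 (TruSeq) (medians -0.21, -0.18 and -0.26, or -0.08, -0.01 and -0.10 with TMM). These counts are close to the shares of all genes given above, and with TMM the TruSeq counts became 2 and 1. Apol7a, of the intracellular ApoL group, was the 1 gene called in all 3 kits and changed by -2.06, -2.38 and -2.70. It has near-identical relatives that could share its reads, so the value is uncertain.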

How the data were processed

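The authors aligned reads to mm9 with GSNAP and, with PORT, removed ribosomal reads, resampled libraries of a kit to equal read depth and deposited the whole-number counts per gene of the resampled reads, in 3 separate tables (sense strand for Pico and TruSeq, both strands for V4). Molecular identifiers were not used, and Pico libraries were prepared anew once without the labels naming the run. With 1 library per mouse and kit, p-values within a kit measure the spread of mouse and library preparation together, which cannot be told apart. The model of kit by treatment without the replicate block treats the libraries of a mouse as independent. All 10 members passed the filter. The test was limma-voom (limma 3.58.1, R 4.3.3), run per kit on library totals for genes with a count in any of its 6 libraries, with Benjamini-Hochberg adjustment over all of them. The model of kit by treatment used 2 tables at a time. CPM divides by the total of gene counts, and lengths and positions came from the mm9 gene annotation. Alternatives were TMM factors, totals without the 10 members, edgeR 4.0.16, DESeq2 1.42.0, at least 10 counts in 3 libraries, thinning every library to 4024630 counts, the replicate block and each mouse left out. The scripts were tested on simulated data. Replicate numbers name the same mouse in every kit. Deviations of the same mouse from its group mean correlated at 0.0718 to 0.225 (Pico, V4), 0.157 to 0.439 (V4, TruSeq) and 0.191 to 0.437 (Pico, TruSeq). No pair of replicates agreed within sampling noise (chi-square per degree of freedom 7.63 or more). The genes and lists were chosen with earlier results of these data known. Some genes of the lists are not reported here and were left out of the list counts. All members are named. From each list at most 4 genes are named, those with the largest change in TruSeq among genes called in 1 direction in all 3 kits. Hnf4a and Apobec1 fall outside this rule and were named after their values were seen. The genes most like a member in pattern were sought only for Apoh, by Pearson's r of log2(CPM + 0.5) among genes of 100 or more mean counts in each kit.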

Additional observations from a re-analysis of the deposited data

How the results depend on the processing

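Over 7 members with changes below 0 and 3 above, no Pico change reversed under any of the 12 alternatives, and the counts of called members moved as follows. The Pico count of 6 was 4 with edgeR, 5 with DESeq2 and 3 to 7 with 1 mouse left out. The V4 count of 1 was 0 with at least 10 counts in 3 libraries and 0 to 1 with 1 mouse left out, and the 1 gene called by TMM, edgeR and DESeq2 was Apoa4 higher and not Apoh lower. The TruSeq count of 5 was 2 with TMM, 1 with edgeR, 2 with DESeq2 and 1 to 4 with 1 mouse left out. The count in Pico with at least 10 counts in 3 libraries was 8. Reversed V4 changes were those of Apoa2 (0.14 with TMM, 0.083 with edgeR, 0.079 with DESeq2), Apoc1 (0.022 with TMM, 0.0020 with edgeR) and Apoc3 (0.0078 with TMM). With 1 mouse left out the V4 changes ran from -0.26 to 0.32 for Apoa2, -0.035 to 0.28 for Apoa5, -0.39 to 0.17 for Apoc1, -0.32 to 0.051 for Apoc3 and -0.34 to 0.0071 for Apoe, and the TruSeq change of Apob from -0.0043 (without mouse I9582) to 0.34. None of these values was called, and the cause was not tested. The contrast of Apob with the short members kept its sign in each alternative and ran from 1.84 to 2.01, -4.14 to -3.89 and 5.84 to 6.04 with 1 mouse left out, where 5 mice cannot go below p = 0.0625, and without pairing by mouse the exact permutation p was 0.00216. With members under 2000 bases it was 1.38, -4.06 and 5.45, and with the median of the short members 1.91, -3.20 and 5.11. With the replicate block 0 members had a response that differed between kits, and the block changed no call of a member. Thinning every library to the smallest lost 1 call of a member, Apoc1 in TruSeq.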

Other observations

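The share of each member in the counts of the 10 genes is given without a test. In Pico Apob went from 26.1% ± 0.92 (SD, n = 3) to 34.2% ± 1.72 after IL-1β, while Apoe went from 44.4% ± 1.14 to 39.0% ± 2.22 and Apoa1 from 13.1% ± 0.82 to 10.7% ± 0.86. In V4 Apob made up 1.07% ± 0.39 after saline and 1.25% ± 0.18 after IL-1β, which overlapped, and Apoe with 48.1% ± 1.91 and 47.5% ± 1.32 was the largest part. In TruSeq Apob made up 18.5% ± 1.51 after saline and 23.7% ± 5.65 after IL-1β, which also overlapped, and Apoe 27.6% ± 0.79 and 26.9% ± 2.13. A pattern that stood out by eye is that Mttp and A1cf fell while Apob, the transcript on whose protein and RNA they act, did not fall in any kit. Apobec1, of Apob editing like A1cf, went the other way, by 0.58, 0.86 and 0.57 in Pico, V4 and TruSeq. It was called by limma-voom in TruSeq only (adjusted p = 0.0115), and with TMM also in V4 (adjusted p = 0.0359). No test links these values. Dixon's test of the lowest and highest library, run on 33 sets of 6 mice, marked 0 libraries, where about 1 in 20 would be marked by chance. The sets share the same 6 mice and are not independent, and the absence of a mark does not show that no library stood apart. For Apoa1 in V4, saline mouse U9576 had 23385 CPM and the other mice 12514 to 15179 CPM.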
